A study of Danio rerio with 40 samples.

Results

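The photoreceptor and visual cycle genes of the larval zebrafish are described here, gene by gene and pool by pool. They are 51 of the 32520 genes in the deposited count table, taken by gene name from a written list of phototransduction, calcium feedback, outer segment and retinoid genes, and all 51 had an entry. The study concerns smad6-related aortic disease in zebrafish (Danio rerio) and whether loss of smad3 alters it. The tested fish were quadruple knockouts (qKO), which are homozygous mutant for smad3a, smad3b, smad6a and smad6b, the genes of TGF-beta signal transducers (smad3) and of inhibitors of this signalling family (smad6). The controls were wild-type cousins, so the genotypes did not share parents. Each genotype was sampled as 5 pools of 5 whole fish at 5 days post fertilization, raised in E3 medium, to which methylene blue was added, at 27°C. No tissue was dissected, and the alleles are not described in the sources used here. The labels call the pools biological replicates. The other 30 of the 40 samples in the series were not analysed here.

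A photoreceptor turns light into an electrical signal through an opsin, which activates the G protein transducin, which in turn releases the catalytic subunits of a phosphodiesterase (PDE6) that breaks down cyclic GMP. Opsin kinases and arrestins end the response, and calcium-binding proteins restore the dark state. Rods and cones use separate copies of many of these parts, and larval zebrafish rely mainly on cones while the rods are still being added. The spent chromophore is rebuilt in the visual cycle, much of which runs in the retinal pigment epithelium behind the photoreceptors, where the enzyme RPE65 performs the isomerisation step.

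Total counts per library ran from 20752303 to 191289475 in qKO pools and from 16062147 to 110409906 in control pools, and the members took 0.822% to 1.22% of the counts in qKO pools and 1.17% to 1.52% in control pools. Levels are given as CPM, the count of a gene relative to the library total after TMM scaling (trimmed mean of M values). RNA of the targeted smad3a averaged 11.0 ± 1.71 CPM in qKO pools and 41.2 ± 3.48 CPM in control pools (SD, n = 5 each). RNA of smad3b averaged 6.52 ± 0.495 CPM in qKO pools and 13.9 ± 0.487 CPM in control pools. Both smad6 genes were higher in qKO pools, with 40.3 ± 2.86 CPM in qKO and 31.4 ± 2.52 CPM in control for smad6a, and 39.8 ± 2.30 CPM in qKO and 25.8 ± 1.31 CPM in control for smad6b. Within each genotype pools 1 and 2 stood apart from pools 3 to 5. The clock gene nr1d1, picked after its values were seen, showed this: it had 334, 352, 1.80, 1.59 and 2.62 CPM in qKO pools 1 to 5 and 8.94, 8.45, 42.1, 48.0 and 45.9 CPM in control pools 1 to 5. The labels give no reason for this split. Pools are therefore named by number throughout, and the members were also fitted within each of these 2 pool sets and with the sets summed.

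Most called photoreceptor members were lower in qKO larvae, and most called visual cycle members were higher. Of 21 tested visual cycle and retinoid genes outside the members, 7 were lower and 4 higher. Of the 51 members 49 had enough counts to be tested, and 30 were called at an adjusted p under 0.05 in edgeR's quasi-likelihood test over 22894 genes, where 25.8% of all genes were called. Of these, 24 members were lower (12.5% of all genes were) and 6 were higher (13.4% of all genes were), and 19 were not called. The median log2 fold change (qKO over control) was -0.49 over the 49 members and 0.03 over all genes tested. In 18 members all 5 qKO pools lay below all 5 control pools, which held for 8.75% of all genes, and in 4 members they all lay above, against 9.2% of all genes. The 22 members whose genotypes did not overlap compare with 18% of all genes. Summed over the members, the level was 7553 to 12166 CPM in qKO pools and 11613 to 16779 CPM in control pools. Whole fish were pooled, so fewer photoreceptors and less RNA per photoreceptor cannot be told apart in any of these values.

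**Figure D1:**
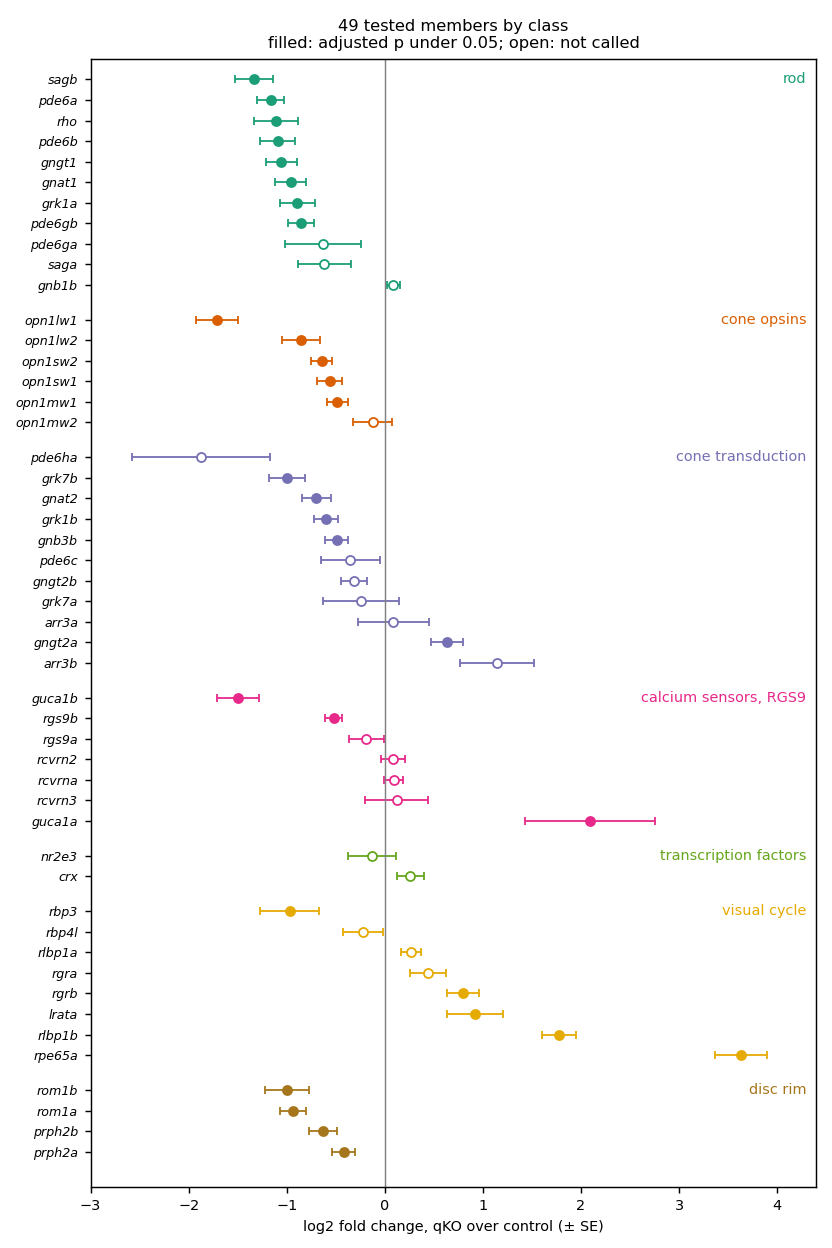
Log2 fold change of each tested member, qKO over control, on the x axis (points, with the standard error as bars) for the 49 tested members on the y axis, grouped by class. Filled points passed an adjusted p of 0.05, and the rod and disc rim points lie left of 0 except gnb1b at 0.08, while rpe65a lies furthest right at 3.63.

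Most rod genes were lower. Of the 11 rod members 8 were lower in qKO pools (12.5% of all genes were) and none was higher (13.4% of all genes). In 8 of the 11 members, the called ones, the genotypes did not overlap, against 18% of all genes. Over the 11 members the median log2 fold change was -0.96. Their summed level was 1497 to 2774 CPM in qKO pools and 3236 to 4913 CPM in control pools. Rhodopsin (rho, ENSDARG00000002193), the rod opsin, had 1912, 1776, 1121, 894 and 929 CPM in qKO pools 1 to 5 and 2309.9, 2416, 3601, 2906 and 3072 CPM in control pools 1 to 5. All qKO pools lay below all controls, with qKO pools 3 to 5 the lowest of the 10 and control pools 1 and 2 the lowest of the controls. Mean rho was 2.16-fold lower in qKO pools (log2 fold change -1.11, SE 0.22, adjusted p = 0.00408). Fitted on the sums of each pool set, 2 against 2, the value for rho was -1.01 with an adjusted p of 0.153, so the call was lost there, as were those of gnat1 and grk1a, while the other 5 called rod members kept theirs.

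Both catalytic phosphodiesterase genes of rods, the inhibitory subunit gene pde6gb and the transducin genes gngt1 and gnat1 were lower in qKO pools. The catalytic subunit gene pde6a (ENSDARG00000000380) had 22.8, 19.5, 17.3, 14.4 and 13.1 CPM in qKO pools 1 to 5, against 33.0, 36.4, 41.6, 40.7 and 42.0 CPM in control pools 1 to 5 (log2 fold change -1.16, SE 0.14, adjusted p = 0.000124). Its catalytic partner pde6b (ENSDARG00000011671) had 28.1, 24.8, 16.7, 13.7 and 16.9 CPM in qKO pools, against 34.9, 43.0, 41.0, 48.3 and 46.0 CPM in control pools (log2 fold change -1.09, SE 0.18, adjusted p = 0.00126). The inhibitory subunit gene pde6gb (ENSDARG00000101984) had 50.8, 41.4, 40.2, 37.0 and 35.3 CPM in qKO pools, against 56.3, 62.4, 85.3, 83.3 and 83.0 CPM in control pools (log2 fold change -0.86, SE 0.13, adjusted p = 0.000715). For all 3 genes the highest qKO pool was pool 1 and the lowest control was pool 1, and even these did not cross. The gene of the transducin gamma subunit, gngt1 (ENSDARG00000035798), had 84.8, 73.3, 60.1, 49.3 and 53.7 CPM in qKO pools, against 98.3, 120.0, 157, 144 and 146 CPM in control pools (log2 fold change -1.05, SE 0.16, adjusted p = 0.000786). The transducin alpha subunit gene gnat1 averaged 100.1 ± 25.7 CPM in qKO pools and 195 ± 27.0 CPM in control pools (SD, n = 5 each), again without overlap (log2 fold change -0.96, adjusted p = 0.00133). The beta subunit gene gnb1b, which is also used widely outside rods, averaged 276 ± 10.6 CPM in qKO pools and 260.5 ± 6.16 CPM in control pools and was not called (log2 fold change 0.08, adjusted p = 0.368).

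Rod shut-off genes were lower where they were called. The rod arrestin gene sagb (ENSDARG00000038378) had 145, 123, 92.3, 79.0 and 108 CPM in qKO pools 1 to 5, against 197, 214, 365, 301 and 308 CPM in control pools 1 to 5 (log2 fold change -1.34, SE 0.20, adjusted p = 0.0007). Its qKO pools lay below every control, and its fold was the furthest from 0 among the rod members. The second arrestin copy, saga, had 76.0, 59.2, 30.1, 30.4 and 31.8 CPM in qKO pools, against 54.8, 60.0, 77.3, 77.7 and 77.3 CPM in control pools, and was not called (log2 fold change -0.62, adjusted p = 0.125). Here qKO pools 3 to 5 lay far below every control while qKO pools 1 and 2 lay within the range of the controls, and without qKO pool 1 the gene was called (log2 fold change -0.87, adjusted p = 0.0134). Counts of saga made up 28.4% ± 4.99 of the counts of the saga and sagb pair in qKO pools and 20.4% ± 1.80 in control pools (SD, n = 5 each). The rhodopsin kinase gene grk1a averaged 29.3 ± 8.61 CPM in qKO pools and 54.2 ± 7.53 CPM in control pools (log2 fold change -0.89, adjusted p = 0.00373). The third rod member not called, pde6ga, the second copy of the inhibitory subunit gene, was scarce, with 3.35, 2.38, 1.31, 1.28 and 0.539 CPM in qKO pools and 1.91, 2.61, 3.15, 2.43 and 2.89 CPM in control pools (log2 fold change -0.64, adjusted p = 0.25). With limma-voom pde6ga was called lower (log2 fold change -1.27, adjusted p = 0.0354), and with the DESeq2 Wald test it was not called.

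**Figure D2:**
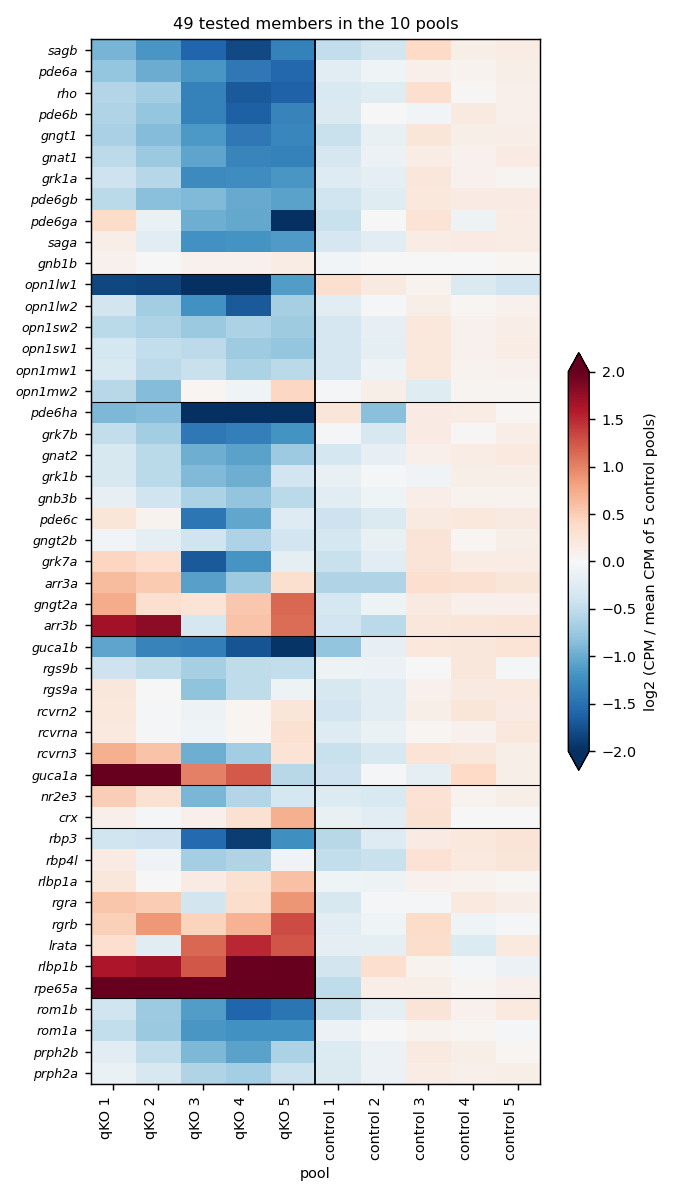
Level of the 49 tested members (y axis, grouped by class and ordered by fold change) in the 10 pools (x axis) as log2 of the CPM over the mean of the 5 control pools, coloured from -2 to 2. The 8 called rod genes are blue in all qKO pools and darkest in pools 3 to 5, and the rows of arr3a, grk7a and rcvrn3 change colour between qKO pools 1 and 2 and qKO pools 3 and 4.

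Most cone opsin genes tested were lower too. Of the 8 cone opsin genes 6 were tested, with a median log2 fold change of -0.60, and 5 of these were lower in qKO pools (12.5% of all genes were). With each pool set (pools 1 and 2, and pools 3 to 5) summed to 1 sample, 4 of these 5 calls were lost, with adjusted p of 0.136 (opn1lw2) to 0.313 (opn1mw1), and that of opn1lw1 was kept. Their summed level was 3241 to 4621 CPM in qKO pools and 4826 to 6803 CPM in control pools. Zebrafish have several tandem copies of the green and red opsin genes, and how reads were shared between near-identical copies is not given in the sources used here, so the values of single copies are uncertain. The ultraviolet opsin gene opn1sw1 (ENSDARG00000045677) had 2130.4, 1928, 1873, 1653 and 1585 CPM in qKO pools 1 to 5, against 2144, 2364, 3142, 2876 and 3002 CPM in control pools 1 to 5. The genotypes did not overlap, but qKO pool 1 lay only just below control pool 1 (log2 fold change -0.56, SE 0.13, adjusted p = 0.00641). The blue opsin gene opn1sw2 (ENSDARG00000017274) had 461, 439.6, 404, 436 and 413 CPM in qKO pools, against 531, 599, 783, 713 and 739 CPM in control pools. The 5 qKO pools were closely alike and lay below every control (log2 fold change -0.64, SE 0.11, adjusted p = 0.00114).

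Among the green opsins, opn1mw1 (ENSDARG00000097008) carried nearly all counts, with 843, 724, 762, 667 and 712 CPM in qKO pools 1 to 5, against 827, 973, 1200.3, 1092 and 1101 CPM in control pools 1 to 5. It was lower in qKO pools (log2 fold change -0.49, SE 0.11, adjusted p = 0.00619), although qKO pool 1 lay above control pool 1. The copy opn1mw2 (ENSDARG00000044280) had 4.86, 3.90, 7.33, 6.73 and 9.47 CPM in qKO pools, against 7.03, 7.73, 6.01, 7.38 and 7.38 CPM in control pools, and was not called (log2 fold change -0.12, adjusted p = 0.683). Its qKO pools 1 and 2 were the lowest of the 10 and qKO pool 5 was the highest. The copies opn1mw3 (ENSDARG00000044279) and opn1mw4 (ENSDARG00000000638) did not pass the filter on low counts. The first had 0, 3, 6, 2 and 17 counts in qKO pools 1 to 5 and 1, 2, 3, 3 and 5 counts in control pools 1 to 5. The other, opn1mw4, had at most 2 counts in a qKO pool and at most 3 counts in a control pool. At this depth 3 counts correspond to between 0.0157 and 0.187 CPM. Most pools had at most 3 counts of either copy, which leaves the comparison imprecise. Without the filter neither was called in edgeR's test. The log2 fold change was 0.24 for opn1mw3 (SE 0.56, adjusted p = 0.796) and -1.97 for opn1mw4 (SE 1.09, adjusted p = 0.225).

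The red opsin copies were both lower. The gene opn1lw2 (ENSDARG00000044861) had 1179, 942, 662, 477 and 959 CPM in qKO pools 1 to 5, against 1305, 1481, 1663, 1569.7 and 1611 CPM in control pools 1 to 5 (log2 fold change -0.85, SE 0.20, adjusted p = 0.00823). Its qKO pools spread widely, with pools 3 and 4 the lowest and pool 5 close to pool 2. The rarer copy opn1lw1 (ENSDARG00000044862) had 2.47, 2.43, 2.01, 1.95 and 4.03 CPM in qKO pools, against 10.9, 9.90, 9.22, 7.13 and 6.62 CPM in control pools, a 3.40-fold lower mean (log2 fold change -1.71, SE 0.21, adjusted p = 0.000168). No qKO pool reached any control, and opn1lw1 was also called with the pool sets summed (log2 fold change -1.59, adjusted p = 0.00631). Its share of the counts of both red copies was 0.319% ± 0.0919 in qKO pools and 0.581% ± 0.170 in control pools (SD, n = 5 each), and the ranges of 0.209% to 0.418% in qKO pools and 0.409% to 0.829% in control pools overlapped.

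The mix of opsin counts was compared as well, without a test. The shares are of the counts in the 9 opsin genes and are not adjusted for gene length, so only the same share may be compared between pools. Shares of a pool add up to the whole, so a higher share need not be a higher level. In CPM, opn1sw1, opn1sw2 and opn1mw1 were called lower in qKO pools. Rod opsin took 29.3%, 30.5%, 23.2%, 21.6% and 20.1% in qKO pools 1 to 5 and 32.4%, 30.8%, 34.6%, 31.7% and 32.2% in control pools 1 to 5. Every qKO pool was below every control, with qKO pool 2 and control pool 2 nearly touching. The share of the ultraviolet opsin was 35.8% ± 3.37 in qKO pools and 30.6% ± 0.710 in control pools, and that of the green opsins was 14.7% ± 1.78 in qKO pools and 11.9% ± 0.378 in control pools (SD, n = 5 each). The blue opsin share was 8.50% ± 1.36 in qKO pools and 7.62% ± 0.141 in control pools, and the red opsin share was 16.1% ± 3.64 in qKO pools and 17.5% ± 1.17 in control pools. Among qKO pools the red share was lowest in pools 3 and 4 (13.7% and 11.6%) and highest in pool 5 (20.9%), outside the control range of 16.1% to 19.0% on both sides.

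**Figure D3:**
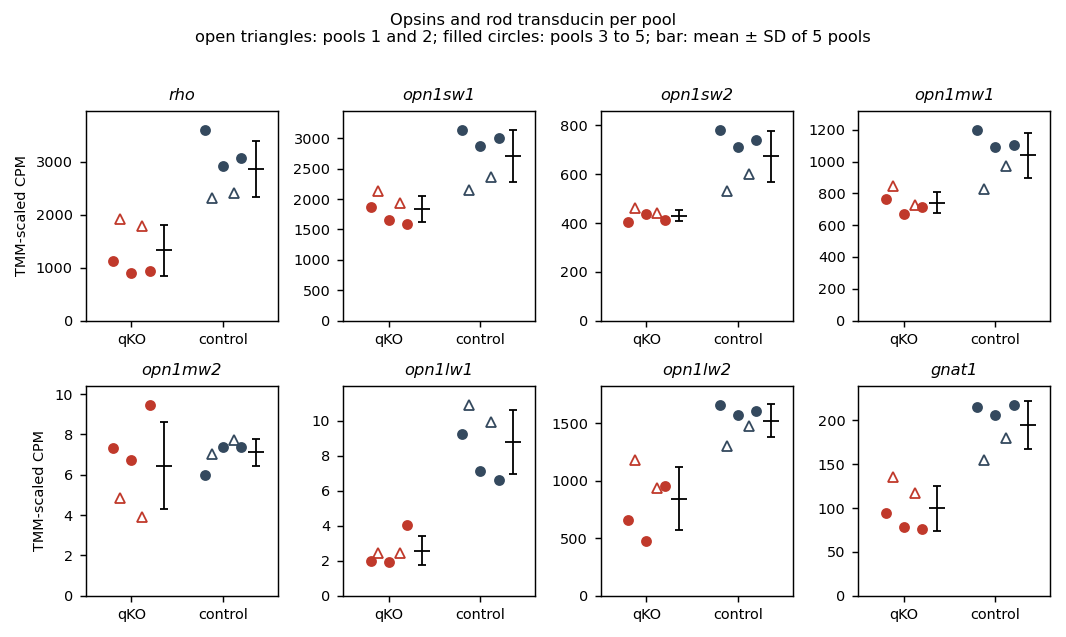
CPM (y axis, each panel from 0) of 7 opsin genes and gnat1 in each pool, qKO left of control, with open triangles for pools 1 and 2, filled circles for pools 3 to 5 and the mean ± SD at the right. The rho circles of qKO pools (894 to 1121 CPM) lie below the triangles of the same genotype (1776 and 1912 CPM), while in controls the circles lie above the triangles.

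The cone transduction and shut-off genes did not move as one group. Of 11 members 4 were lower in qKO pools (12.5% of all genes were), 1 was higher (13.4% of all genes) and 6 were not called. The median log2 fold change of the 11 was -0.35. All 5 calls were lost with the pool sets summed, with adjusted p of 0.0851 to 0.343. The cone transducin alpha gene gnat2 (ENSDARG00000042529) had 563, 488, 359, 336 and 427 CPM in qKO pools 1 to 5, against 554, 627, 754, 780.5 and 809 CPM in control pools 1 to 5 (log2 fold change -0.70, SE 0.15, adjusted p = 0.005). The cone beta subunit gene gnb3b (ENSDARG00000002696) had 607, 518, 439, 393 and 472 CPM in qKO pools, against 586, 644, 749, 718 and 715 CPM in control pools (log2 fold change -0.49, SE 0.12, adjusted p = 0.00895). In both genes qKO pool 1 lay within the range of the controls and qKO pools 2 to 5 below it. The gamma subunit copy gngt2a (ENSDARG00000010680) had 42.6, 32.0, 30.8, 37.0 and 56.3 CPM in qKO pools, against 20.1, 23.7, 29.0, 27.4 and 27.4 CPM in control pools, and was the only cone transduction member called higher (log2 fold change 0.63, SE 0.16, adjusted p = 0.0126). Every qKO pool was above every control, though qKO pools 2 and 3 exceeded control pool 3 by little. The other gamma copy, gngt2b, averaged 394 ± 59.2 CPM in qKO pools and 490.1 ± 78.8 CPM in control pools and was not called (log2 fold change -0.31, adjusted p = 0.0887). Leaving out qKO pool 1 or control pool 1 brought it past the threshold (log2 fold change -0.38, adjusted p = 0.0489, and -0.42, adjusted p = 0.0277).

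Among the opsin kinase genes, grk7b (ENSDARG00000055534), a cone opsin kinase, had 4.42, 3.83, 2.31, 2.39 and 2.70 CPM in qKO pools 1 to 5, against 6.04, 4.99, 6.91, 6.28 and 6.77 CPM in control pools 1 to 5, without overlap (log2 fold change -1.002, SE 0.18, adjusted p = 0.002). The gene lies on the chromosome of smad3b and smad6b, 345 and 346 protein-coding genes away in the RefSeq order of the GRCz12tu assembly. A second kinase gene, grk1b (ENSDARG00000104685), had 67.1, 57.6, 45.3, 42.8 and 64.2 CPM in qKO pools, against 75.3, 81.3, 80.0, 91.3 and 91.4 CPM in control pools (log2 fold change -0.60, SE 0.12, adjusted p = 0.00382). Again no qKO pool reached a control. The third kinase gene, grk7a, averaged 87.9 ± 48.5 CPM in qKO pools and 104 ± 20.6 CPM in control pools with a wide spread between qKO pools, and was not called (log2 fold change -0.24, adjusted p = 0.682).

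The cone phosphodiesterase and arrestin genes varied widely between pools of one genotype. The inhibitory subunit gene pde6ha had 60.8, 61.9, 5.11, 7.04 and 19.8 CPM in qKO pools 1 to 5, against 135, 63.6, 127, 125 and 116 CPM in control pools 1 to 5. All qKO pools were below all controls, but qKO pools 1 and 2 and control pool 2 were nearly equal while qKO pools 3 to 5 were far below them. With this spread pde6ha was not called by edgeR (log2 fold change -1.88, SE 0.70, adjusted p = 0.0818), but it was called by the DESeq2 Wald test (adjusted p = 0.0264) and limma-voom (adjusted p = 0.0236). The catalytic subunit gene pde6c had 269, 238, 83.9, 111 and 189.8 CPM in qKO pools, against 171, 185, 258, 264 and 258 CPM in control pools (log2 fold change -0.35, adjusted p = 0.424). The cone arrestin gene arr3a had 477, 442, 145, 185 and 386 CPM in qKO pools, against 202, 203, 388, 379.8 and 366 CPM in control pools (log2 fold change 0.09, adjusted p = 0.883). For both genes qKO pools 1 and 2 were high and qKO pools 3 and 4 low, while control pools 1 and 2 were the lowest controls. The other cone arrestin gene, arr3b, had 197, 212, 48.6, 91.4 and 134 CPM in qKO pools, against 47.0, 42.2, 71.9, 72.5 and 73.9 CPM in control pools. Only qKO pool 3 lay within the range of the controls, and arr3b narrowly missed the threshold (log2 fold change 1.15, adjusted p = 0.0501). Without qKO pool 3 it was called (log2 fold change 1.34, adjusted p = 0.00853). The DESeq2 Wald test also called arr3b higher (adjusted p = 0.0223). So did edgeR with library totals (adjusted p = 0.0198) and with a filter at a mean of 1 CPM (adjusted p = 0.0442). Neither limma-voom nor edgeR with upper-quartile scaling called arr3b. Counts of arr3b made up 29.1% ± 3.63 of the arrestin pair in qKO pools and 16.9% ± 1.25 in control pools (SD, n = 5 each). The ranges, 25.2% to 33.1% in qKO pools and 15.6% to 18.9% in control pools, did not overlap.

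The 7 calcium sensor and RGS9 members serve response recovery and were not assigned to rods or cones. Of these, 2 were lower in qKO pools (12.5% of all genes were), 1 was higher (13.4% of all genes) and 4 were not called. With the pool sets summed, guca1b kept its call, and guca1a and rgs9b lost theirs. The genes guca1a and guca1b encode guanylate cyclase-activating proteins, which restart cyclic GMP synthesis when calcium drops. They were called in opposite directions. The gene guca1b (ENSDARG00000013393) had 3.75, 3.08, 2.98, 2.35 and 1.99 CPM in qKO pools 1 to 5, against 4.50, 6.95, 8.99, 9.09 and 9.38 CPM in control pools 1 to 5, with no overlap (log2 fold change -1.50, SE 0.21, adjusted p = 0.000396). The gene guca1a (ENSDARG00000010454) had 8.29, 7.46, 1.82, 2.12 and 0.615 CPM in qKO pools, against 0.678, 0.882, 0.797, 1.19 and 0.985 CPM in control pools (log2 fold change 2.09, SE 0.66, adjusted p = 0.0425). It was highest in qKO pools 1 and 2, qKO pools 3 and 4 were also above every control, and qKO pool 5 had the lowest value of the 10. The guca1a call was lost when any pool except qKO 3 or qKO 5 was left out, with adjusted p of 0.0568 to 0.0927 in those 8 fits. It was also lost in limma-voom (log2 fold change 0.97, adjusted p = 0.456) and in edgeR without the filter on low counts (adjusted p = 0.0744). The gene rgs9b (ENSDARG00000045156), one copy of the regulator that speeds GTP hydrolysis by transducin, had 13.9, 13.1, 11.7, 13.1 and 13.2 CPM in qKO pools, against 17.4, 17.2, 18.6, 21.8 and 18.1 CPM in control pools, with no overlap (log2 fold change -0.52, SE 0.09, adjusted p = 0.00127).

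The 3 recoverin genes, whose products inhibit opsin kinases in the dark, were not called. The gene rcvrna averaged 69.6 ± 8.01 CPM in qKO pools and 65.3 ± 8.10 CPM in control pools, and rcvrn2 averaged 246 ± 26.0 CPM in qKO pools and 233 ± 42.4 CPM in control pools (SD, n = 5 each). For rcvrn3 the range was 129 to 413 CPM in qKO pools and 185 to 307 CPM in control pools. Their log2 fold changes lay between 0.08 and 0.12. The second RGS9 copy, rgs9a, averaged 45.5 ± 12.4 CPM in qKO pools and 51.8 ± 8.24 CPM in control pools and was not called either (adjusted p = 0.465). Neither transcription factor was called. The photoreceptor homeobox gene crx averaged 117 ± 25.8 CPM in qKO pools and 97.4 ± 13.9 CPM in control pools (log2 fold change 0.26, adjusted p = 0.186), with qKO pool 5 highest of the 10 at 159.7 CPM. The gene nr2e3, which in mouse and human represses cone genes in rods, averaged 12.2 ± 4.95 CPM in qKO pools and 13.2 ± 2.38 CPM in control pools (log2 fold change -0.13, adjusted p = 0.729).

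Most called visual cycle members were higher. Of 8 members 4 were higher in qKO pools (13.4% of all genes were) and 1 was lower (12.5% of all genes). This did not extend to the 21 other tested visual cycle and retinoid genes, of which 7 were lower and 4 higher. The median log2 fold change of the 8 was 0.62. The isomerohydrolase gene rpe65a (ENSDARG00000007480) had 67.7, 76.1, 33.0, 79.0 and 98.0 CPM in qKO pools 1 to 5, against 3.94, 6.21, 6.09, 5.87 and 6.05 CPM in control pools 1 to 5. Its lowest qKO pool, pool 3, was still far above every control, and its mean was 12.6-fold higher in qKO pools (log2 fold change 3.63, SE 0.27, adjusted p = 1.49e-05). The cellular retinaldehyde-binding protein gene rlbp1b (ENSDARG00000045808) had 20.1, 21.3, 15.4, 25.9 and 29.9 CPM in qKO pools, against 5.12, 8.31, 6.91, 6.41 and 6.07 CPM in control pools (log2 fold change 1.77, SE 0.17, adjusted p = 3.32e-05). All qKO pools were above all controls, pool 3 again being the lowest of its genotype. Both genes were also called with the pool sets summed, 2 against 2 (rpe65a adjusted p = 3.37e-07, rlbp1b adjusted p = 0.000465). The paralog rlbp1a, on the chromosome of smad3a and smad6a at 494 and 495 protein-coding genes from them, averaged 41.2 ± 6.38 CPM in qKO pools and 34.2 ± 2.09 CPM in control pools and was not called (log2 fold change 0.27, adjusted p = 0.061). It passed the threshold without qKO pool 2 (adjusted p = 0.0201). Counts of rlbp1b made up 35.1% ± 4.03 of the rlbp1 pair in qKO pools and 16.1% ± 2.74 in control pools (SD, n = 5 each).

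The gene rgrb (ENSDARG00000098724), whose product is an opsin-like protein that isomerises retinal, had 24.8, 32.5, 24.5, 29.1 and 44.4 CPM in qKO pools 1 to 5, against 15.3, 16.9, 23.1, 16.9 and 17.4 CPM in control pools 1 to 5, and was higher in qKO pools (log2 fold change 0.79, SE 0.16, adjusted p = 0.0044). Control pool 3 came close to qKO pools 1 and 3, and the genotypes did not overlap. Its paralog rgra averaged 15.9 ± 4.53 CPM in qKO pools and 11.6 ± 1.54 CPM in control pools and was not called (log2 fold change 0.44, adjusted p = 0.1), though it was without qKO pool 3 (log2 fold change 0.57, adjusted p = 0.0103). The retinol acyltransferase gene lrata (ENSDARG00000037278) had 5.58, 3.83, 9.86, 12.5 and 10.6 CPM in qKO pools, against 3.88, 3.87, 5.64, 3.66 and 5.09 CPM in control pools (log2 fold change 0.92, SE 0.29, adjusted p = 0.0339). Only qKO pools 3 to 5 were above every control, and the call was lost in 7 of the 10 fits that left out 1 pool (without qKO 3, 4 or 5 or control 1, 2, 4 or 5; adjusted p of 0.0545 to 0.0929). With the pool sets summed lrata lost its call too (adjusted p = 0.49), while rgrb kept its own. Neither limma-voom (adjusted p = 0.071) nor edgeR without the filter on low counts (adjusted p = 0.0542) called lrata.

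The interphotoreceptor retinoid-binding protein gene rbp3 (ENSDARG00000059163), which photoreceptors themselves express, was the visual cycle member called lower. It had 149.7, 149, 67.7, 53.2 and 84.9 CPM in qKO pools 1 to 5, against 135, 166, 223, 230.0 and 236 CPM in control pools 1 to 5 (log2 fold change -0.97, SE 0.30, adjusted p = 0.0394). Only qKO pools 3 to 5 lay below every control, and the call was lost without qKO 3, 4 or 5 or without control 2, 3, 4 or 5 (adjusted p of 0.0573 to 0.0899). It was also lost with the pool sets summed (adjusted p = 0.405) and in edgeR without the filter on low counts (adjusted p = 0.0615). The remaining member of the class, rbp4l, averaged 124 ± 30.8 CPM in qKO pools and 144 ± 36.7 CPM in control pools and was not called (adjusted p = 0.456).

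Markers of pigment cells, which include the retinal pigment epithelium and also the melanophores of the skin, were higher in qKO pools, as were 4 of the 8 visual cycle members. All 10 of 10 markers were higher in qKO pools (13.4% of all genes were), and none was at 0 in any group. Their summed level was 318 to 598 CPM in qKO pools and 88.0 to 121 CPM in control pools. The melanin synthesis gene tyrp1a averaged 24.3 ± 5.51 CPM in qKO pools and 6.82 ± 0.567 CPM in control pools (log2 fold change 1.83, adjusted p = 4.26e-06). The gene pmela, which encodes the fibril protein of the melanosome, averaged 107 ± 18.5 CPM in qKO pools and 40.4 ± 4.98 CPM in control pools (log2 fold change 1.40, adjusted p = 1.15e-05). Their part in the levels of rpe65a, rlbp1b and rgrb was not tested.

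**Figure D4:**
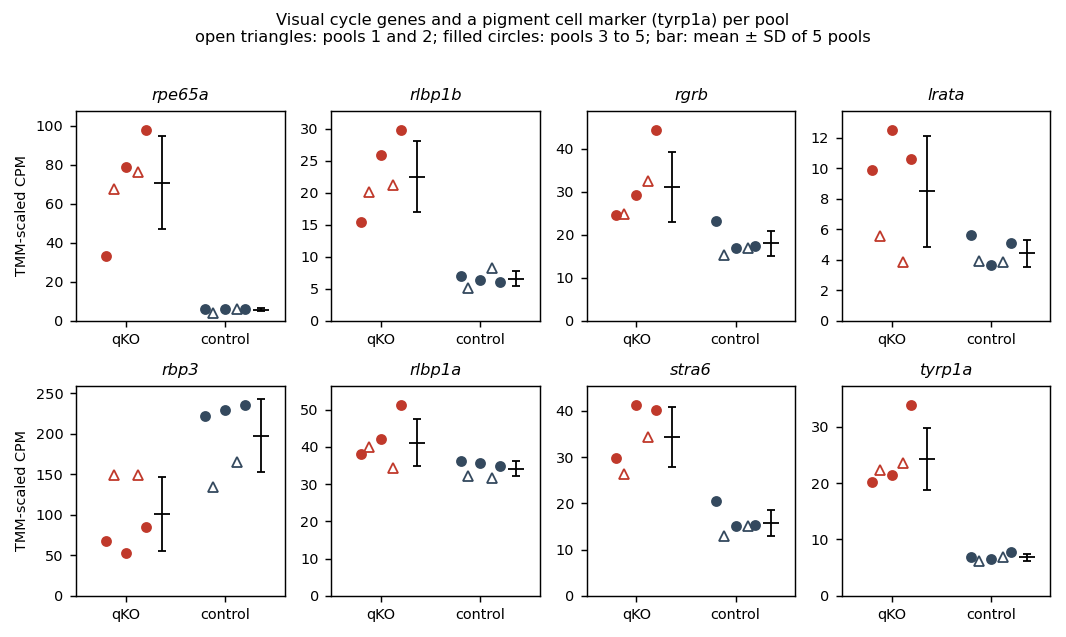
CPM (y axis, each panel from 0) of 6 visual cycle members, the retinol-binding protein receptor gene stra6 and the pigment cell marker tyrp1a in each pool, qKO left of control, with open triangles for pools 1 and 2, filled circles for pools 3 to 5 and the mean ± SD at the right. In rpe65a and rlbp1b every qKO point lies above every control point, and in rbp3 the qKO circles (53.2 to 84.9 CPM) lie below all controls while the triangles overlap with them.

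The disc rim genes encode tetraspanins that hold the curved edge of the outer segment discs. All 4 were lower in qKO pools (12.5% of all genes were), with a median log2 fold change of -0.78. With the pool sets summed rom1a kept its call, and rom1b (adjusted p = 0.215), prph2b (adjusted p = 0.193) and prph2a (adjusted p = 0.372) lost theirs. The gene rom1a (ENSDARG00000019752) had 42.0, 35.5, 26.5, 25.7 and 25.7 CPM in qKO pools 1 to 5, against 54.5, 59.7, 62.4, 61.2 and 58.6 CPM in control pools 1 to 5, with no overlap and closely alike controls (log2 fold change -0.94, SE 0.13, adjusted p = 0.000357). Its copy rom1b (ENSDARG00000026926) had 39.6, 31.8, 24.2, 17.4 and 19.0 CPM in qKO pools, against 37.5, 46.4, 62.9, 55.4 and 59.9 CPM in control pools (log2 fold change -0.997, SE 0.23, adjusted p = 0.00885). In rom1b the highest qKO pool, pool 1, lay just above control pool 1. The peripherin genes had fold changes nearer to 0. The copy prph2b (ENSDARG00000014840) had 193, 159, 121, 107 and 145 CPM in qKO pools, against 186, 207, 256, 245 and 231 CPM in control pools (log2 fold change -0.63, SE 0.15, adjusted p = 0.00777). The other copy, prph2a (ENSDARG00000038018) had 143, 124, 103, 97.6 and 116 CPM in qKO pools, against 128, 144, 173, 167 and 168 CPM in control pools (log2 fold change -0.42, SE 0.11, adjusted p = 0.0173). In both, qKO pools 2 to 5 were below every control and qKO pool 1 was not.

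The split between pools 1 and 2 and pools 3 to 5 ran through some members, and in others only 1 qKO pool differed from the rest. In 11 members qKO pools 3 to 5 all lay below all 5 controls while pools 1 and 2 did not both do so, against 8.53% of all genes. They were pde6ga, saga, opn1mw1, gnat2, gnb3b, gngt2b, rbp3, prph2a, prph2b, rom1b and nr2e3. In opn1mw1, gnat2, gnb3b, prph2a, prph2b and rom1b qKO pool 2 also lay below every control, and only qKO pool 1 did not. In 7 members (arr3a, arr3b, grk7a, guca1a, rcvrn3, rgra and nr2e3) qKO pools 1 and 2 both lay above all controls while pools 3 to 5 did not all do so, against 6.53% of all genes. In arr3b and rgra only qKO pool 3 was not above all controls, and in guca1a only qKO pool 5 was not. The gene nr2e3 belongs to both groups, with 18.5, 16.2, 7.01, 8.76 and 10.3 CPM in qKO pools 1 to 5 and 10.8, 10.6, 16.2, 13.9 and 14.4 CPM in control pools 1 to 5, a pattern shared by 0.424% of all genes. In a further 3 members (gnb1b, rlbp1a and lrata) qKO pools 3 to 5 lay above all controls and pools 1 and 2 did not both do so, against 9.27% of all genes. In gnb1b and rlbp1a only qKO pool 2 was not above all controls. Within qKO pools 3 to 5, pool 5 stood nearer to pools 1 and 2 in some members. The gene grk7a had 139.5, 131, 32.3, 46.0 and 90.3 CPM in qKO pools 1 to 5, against 75.9, 88.4, 125, 115 and 115 CPM in control pools 1 to 5. The gene rcvrn3 had 413, 374, 129, 156 and 306 CPM in qKO pools, against 185, 203, 307, 295 and 275 CPM in control pools.

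**Figure D5:**
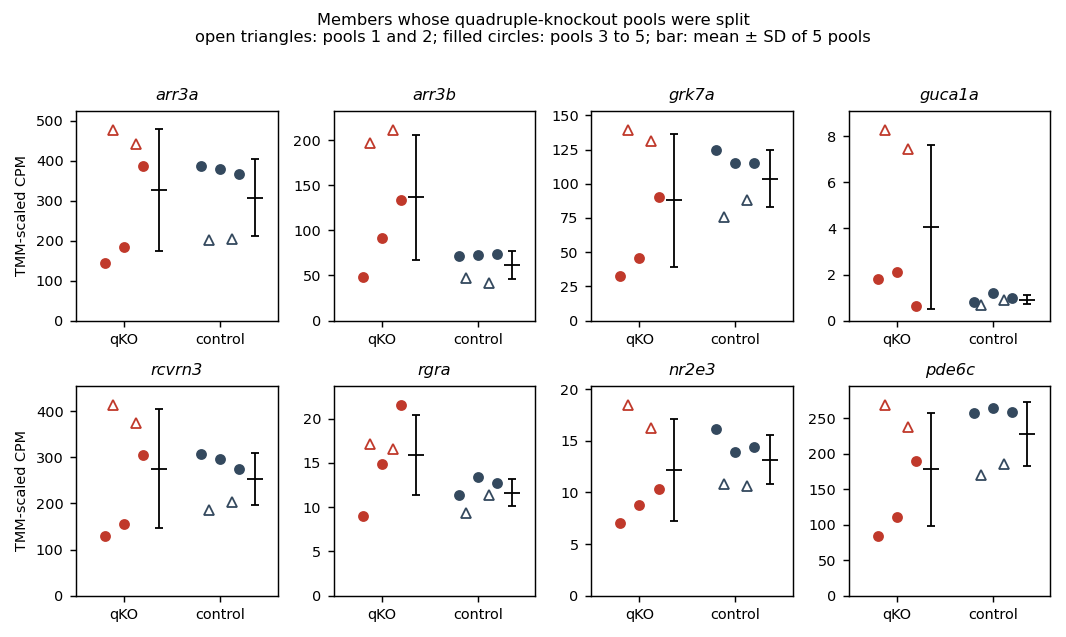
CPM (y axis, each panel from 0) of 8 members in each pool, chosen after their values were seen because qKO pools 1 and 2 differed from pools 3 and 4, qKO left of control, with open triangles for pools 1 and 2, filled circles for pools 3 to 5 and the mean ± SD at the right. In nr2e3 both qKO triangles lie above and all qKO circles below the 5 controls, which range from 10.6 to 16.2 CPM.

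Tested within same-numbered pools, the members divided differently. With qKO pools 1 and 2 against control pools 1 and 2, 14 members were lower (10.3% of all genes) and 15 higher (11.2% of all genes). With qKO pools 3 to 5 against control pools 3 to 5, 32 members were lower (21.3% of all genes) and 3 higher (20.1% of all genes). These comparisons share no pool, but the pool sets were chosen with earlier results of these data known. Pools were grouped for being alike, so the adjusted p within sets, here and with the numbers crossed, may be too small. In both, 13 members were lower (4.65% of all genes): rho, gnat1, gngt1, pde6a, pde6b, pde6gb, sagb, opn1sw2, opn1lw1, opn1lw2, grk1b, guca1b and rom1a, of which 7 are rod members. The log2 fold change of rho was -0.36 (adjusted p = 0.0246) in pools 1 and 2 and -1.74 (adjusted p = 2.88e-06) in pools 3 to 5, and that of pde6a was -0.73 (adjusted p = 0.000543) and -1.51 (adjusted p = 2.73e-06). Higher in both were rpe65a, with log2 fold changes of 3.77 and 3.51, and rlbp1b, with 1.58 and 1.85, where 4.63% of all genes were higher in both.

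With same-numbered pools compared, a further 4 members were higher in pools 1 and 2 and lower in pools 3 to 5 (0.777% of all genes). The log2 fold change of pde6c was 0.51 (adjusted p = 0.0025) in pools 1 and 2 and -1.06 (adjusted p = 0.0405) in pools 3 to 5. That of rgs9a was 0.39 (adjusted p = 0.0161) and -0.62 (adjusted p = 0.0169) in the same order. For rbp4l the values were 0.52 (adjusted p = 0.00214) and -0.71 (adjusted p = 0.00605), and for nr2e3 0.68 (adjusted p = 0.00273) and -0.79 (adjusted p = 0.00108). No member was lower in pools 1 and 2 and higher in pools 3 to 5, against 1.71% of all genes. Whether the effects of the pool sets differ from each other was not tested, since the labels do not tie a pool of one genotype to a pool of the other. With the numbers crossed, qKO pools 1 and 2 against control pools 3 to 5 gave 26 members lower (10.6% of all genes) and 8 higher (9.82% of all genes). Likewise qKO pools 3 to 5 against control pools 1 and 2 gave 24 lower (15.2% of all genes) and 6 higher (17.3% of all genes). These comparisons use the same pools as the ones above. Neither crossed comparison called pde6c, rgs9a, rbp4l or nr2e3. With qKO pools 1 and 2 their log2 fold changes were -0.07, -0.06, -0.22 and 0.20 in this order. With qKO pools 3 to 5 they were -0.47, -0.16, 0.05 and -0.29. The genes arr3a and arr3b depended on the choice. For arr3a the log2 fold change was 1.18 in pools 1 and 2 (adjusted p = 1.28e-06) and -0.70 in pools 3 to 5 (adjusted p = 0.217). Crossed, its value was 0.26 with qKO pools 1 and 2 (adjusted p = 0.0602) and 0.24 with qKO pools 3 to 5 (adjusted p = 0.767). For arr3b the same-numbered values were 2.20 (adjusted p = 2.35e-09) and 0.29 (adjusted p = 0.574). Its crossed values were 1.46 with qKO pools 1 and 2 (adjusted p = 1.00e-06) and 1.05 with qKO pools 3 to 5 (adjusted p = 0.227).

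With each pool set summed to 1 sample, 2 against 2, 8 members were lower (1.94% of all genes) and 3 higher (0.903% of all genes). Raw counts were summed, so the deeper libraries weighed more in each sum. Total counts were 59973605, 20752303 and 191289475 in qKO pools 3, 4 and 5, and 25081743 and 58975921 in qKO pools 1 and 2. The lower ones were the rod genes gngt1, pde6a, pde6b, pde6gb and sagb, the red opsin gene opn1lw1, guca1b and rom1a. The higher ones were rpe65a, rlbp1b and rgrb (rgrb adjusted p = 0.0169).

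Other genes of these pathways were counted in the same way, and their counts are to be read against the 12.5% of all genes that were lower and the 13.4% that were higher. Of 24 tested phototransduction genes outside the members 7 were lower and 2 higher in qKO pools, with a median log2 fold change of -0.27. The gene cnga1b, one copy of the cyclic GMP-gated channel gene that serves rods in mammals, averaged 5.41 ± 1.17 CPM in qKO pools and 10.5 ± 1.28 CPM in control pools (log2 fold change -0.97, adjusted p = 0.000631). The gene cnga3b, whose mammalian counterpart serves cones, averaged 7.10 ± 3.16 CPM in qKO pools and 2.08 ± 0.556 CPM in control pools (log2 fold change 1.73, adjusted p = 0.00208). The G protein regulator gene rgs16 was lower (log2 fold change -0.76, adjusted p = 0.00226).

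Of 21 other tested visual cycle and retinoid genes 7 were lower and 4 higher in qKO pools, with a median log2 fold change of -0.09. The receptor gene stra6, whose product takes up retinol from the circulating carrier, averaged 34.4 ± 6.46 CPM in qKO pools and 15.7 ± 2.82 CPM in control pools (log2 fold change 1.12, adjusted p = 0.000208), without overlap. The gene of that carrier, rbp4, a product mainly of the liver, averaged 788 ± 70.3 CPM in qKO pools and 1382 ± 219 CPM in control pools (log2 fold change -0.81, adjusted p = 0.00042). The carotene-cleaving oxygenase gene bco1 averaged 26.1 ± 2.47 CPM in qKO pools and 41.9 ± 3.48 CPM in control pools (log2 fold change -0.68, adjusted p = 0.000156).

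Of 20 other photoreceptor transcription factor genes 2 were lower, rx1 (log2 fold change -0.64, adjusted p = 0.0146) and rx2 (log2 fold change -0.61, adjusted p = 0.0319), both retinal homeobox genes, and 1 was higher, six6b (log2 fold change 0.69, adjusted p = 0.00104). Of 37 tested entries of outer segment, cilium and synapse genes 8 were lower and 8 higher, with a median log2 fold change of 0.00. Among them unc119.2 was lower (log2 fold change -1.39, adjusted p = 9.21e-05), and both entries named impg2b were higher (log2 fold changes 1.35 and 1.27, adjusted p = 0.000832 and 0.00117). Of 28 tested entries of pineal and non-visual opsin genes 4 were lower and 5 higher. The peropsin gene rrh averaged 3.58 ± 1.07 CPM in qKO pools and 1.17 ± 0.181 CPM in control pools (log2 fold change 1.59, adjusted p = 0.00026). The opsin gene opn6a averaged 22.0 ± 5.70 CPM in qKO pools and 9.18 ± 1.70 CPM in control pools (log2 fold change 1.25, adjusted p = 0.000512). The gene opn3 averaged 4.36 ± 0.668 CPM in qKO pools and 6.22 ± 0.398 CPM in control pools (log2 fold change -0.50, adjusted p = 0.0087).

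Markers of the other cells of the eye, many of which are used in other tissues too, are given against the same shares of all genes, 12.5% lower and 13.4% higher. For Müller glia 1 of 6 was lower and 2 higher, with a summed level of 1997 to 2596 CPM in qKO pools and 2327 to 2884 CPM in control pools. For bipolar cells 2 of 9 were lower and 1 higher (225 to 283 CPM in qKO, 217 to 262 CPM in control). For amacrine cells 1 of 9 was lower and 1 higher (958 to 1160 CPM in qKO, 959 to 1128 CPM in control). For horizontal cells 1 of 6 was lower (98.3 to 161 CPM in qKO, 101 to 120 CPM in control). For retinal ganglion cells 1 of 9 entries, from 8 listed genes, was lower and 1 higher (306 to 362 CPM in qKO, 306 to 330 CPM in control). Of 10 lens genes 5 were lower and none higher, with a summed level of 2485 to 3468 CPM in qKO pools and 3271 to 5128 CPM in control pools. The lens gene cryaa averaged 27.3 ± 5.79 CPM in qKO pools and 57.0 ± 9.63 CPM in control pools (log2 fold change -1.07, adjusted p = 0.000368). The gene cryba1a averaged 2.90 ± 0.513 CPM in qKO pools and 4.78 ± 0.908 CPM in control pools (log2 fold change -0.72, adjusted p = 0.00677). The called lens genes and the called rod and cone opsin genes were thus all lower in qKO pools, and the part of the lens markers in the result was not tested.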

How the data were processed

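Bulk RNA libraries (TruSeq Stranded Total RNA, 200 ng input per the labels' protocols) of 10 pools were used. The authors deposited raw read counts per Ensembl gene for 32520 genes. The submitters' processing notes name FastQC 0.11.9, Trim Galore 0.6.6, featureCounts, Subread 2.0.0, MultiQC 1.9 and GRCz11; the aligner, annotation and use of strand are not given in the sources used here, so no coordinates are printed. All columns of counts matched 1 library each. No 2 pools of a genotype agreed within sampling noise (lowest chi-square per degree of freedom 5.52).

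The test was run with edgeR 4.0.16 (R 4.3.3): filterByExpr, TMM scaling, robust quasi-likelihood test, Benjamini-Hochberg adjustment over 22894 genes, no covariates, and calls at an adjusted p under 0.05. Standard errors were derived from the test statistic. CPM used the TMM-scaled library sizes, and SDs cover 5 pools. Biological variation between pools was 16.8%. Floors of 3 counts cover counting error only. Gene order came from RefSeq GRCz12tu, where 50 of 51 members matched by name. Alternatives, including limma 3.58.1 (voom) and DESeq2 1.42.0, are given in the closing section.

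The members, lists and pool sets were chosen with earlier results of these data known. Values per pool are given for all opsins and for at most 5 called members of each class with the lowest p, and, chosen after their values were seen, for further members that varied between pools. Of the other lists at most 3 called genes with the lowest p are named, and at most 2 of the marker lists.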

Additional observations from a re-analysis of the deposited data

Results flagged for a closer look

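In each genotype the highest and lowest pool of every tested member were compared with the nearest other pool by Dixon's criterion for 5 values (critical ratio 0.71). Of 98 such groups 4 had a pool that stood far from the rest, and chance alone gives about 1 in 20. The red opsin copy opn1lw1 had 4.03 CPM in qKO pool 5, with 1.95 to 2.47 CPM in the other qKO pools. The cone phosphodiesterase gene pde6ha had 63.6 CPM in control pool 2, with 116 to 135 CPM in the other controls, which left control pool 2 close to the 60.8 and 61.9 CPM of qKO pools 1 and 2. The gene rpe65a had 3.94 CPM in control pool 1, with 5.87 to 6.21 CPM in the other controls. The gene rgrb had 23.1 CPM in control pool 3, with 15.3 to 17.4 CPM in the other controls. Left out in turn, none of these pools ended or reversed the call of opn1lw1, rpe65a or rgrb, and pde6ha was not called in any of these fits.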

How the results depend on the processing

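Under the 25 other settings 1225 fold changes of members were computed, of which 34 had the opposite sign. Among those that kept the sign, 73 lost the call and 37 gained it. Of the 30 called members 27 kept the call in all 10 fits that left out 1 library, and guca1a, rbp3 and lrata did not. Those fits called 4309 to 6363 genes, 23 to 26 members lower and 4 to 7 higher. Across them the uncalled log2 fold changes of arr3a, rcvrn3, opn1mw2 and rcvrn2 changed sign, between -0.088 and 0.25 (arr3a), -0.070 and 0.28 (rcvrn3), -0.33 and 0.020 (opn1mw2) and -0.035 and 0.15 (rcvrn2). At an adjusted p under 0.01, 2797 genes and 3 higher members were called. Pools 1 and 2 alone gave 14 members lower and 15 higher, pools 3 to 5 alone 9551 genes and 3 members higher, and the pool sets summed 700 genes, 8 members lower and 3 higher; the cause was not tested, except that the sums leave 2 samples a genotype. Signs turned in pools 1 and 2 for pde6ga (0.28), saga (0.23), gngt2b (0.13), pde6c (0.51), grk7a (0.72), rgs9a (0.39), nr2e3 (0.68) and rbp4l (0.52), and in pools 3 to 5 for opn1mw2 (0.16), arr3a (-0.70), rcvrna (-0.055), rcvrn2 (-0.14) and rcvrn3 (-0.61). They turned in qKO pools 1 and 2 against control pools 3 to 5 for gnb1b (-0.0044), grk7a (0.17), rcvrna (-0.061), rcvrn2 (-0.11), crx (-0.11), nr2e3 (0.20) and lrata (-0.094), in qKO pools 3 to 5 against control pools 1 and 2 for opn1mw2 (0.11) and rbp4l (0.048), and with the sets summed for grk7a (0.023) and nr2e3 (0.025).

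Same-numbered pools did not deviate together (correlations of -0.15 to -0.000172). Whether the numbers pair the pools cannot be decided from this, because paired pools that deviate in opposite directions would also give negative correlations. With the replicate number as a block, 4543 genes, 22 members lower and 5 higher were called; guca1a, rbp3 and prph2a lost the call, and arr3a turned to -0.000367. No member changed sign under another scaling. Higher genes made up 51.7% of the calls with TMM, 66.99% with library totals (median of all genes 0.11) and 42.6% with upper-quartile scaling, where 24 members were lower in each. DESeq2's Wald test called 6653 genes with 25 members lower and 7 higher, and limma-voom 26 lower and 4 higher. Depth limits opn1mw3 and opn1mw4, which were tested without the filter and, for opn1mw3, by DESeq2, and called in neither.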
